A study of Mus musculus with 6 samples.

Results

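The genes described here make, carry, bind, degrade and sense retinoic acid, the active form of vitamin A. They were followed in 3 bones of normal adult mice. The members are Aldh1a1, Aldh1a2, Aldh1a3, Rbp4, Stra6, Crabp1, Crabp2, Cyp26b1 and Rarb, and they were found by taking every probe set that the annotation of the array gives to 1 of these symbols alone. This gave 11 probe sets for the 9 genes, of 45101 probe sets on the array and 18193 genes with a probe set of their own. Aldh1a3 had 3 probe sets and each of the other 8 genes had 1. RNA was taken from calvaria with the sutures removed, from mandible with the teeth left in, and from ulna cleared of soft tissue and epiphyses, with 2 arrays for each site. All animals were untreated, skeletally mature male mice of 24 to 26 grams, and the study names the strain as Black CD57. The study used the mice as a pilot, and one question it put to them was whether gene expression differs between skull and limb bone. The study divided its pilot mice into groups, and the sources used here do not tell whether replicate numbers stand for those groups or whether an array stands for 1 mouse or a pool, so the p-values cover the spread of the deposited arrays alone, and that spread may be technical. These are whole bones with several kinds of cells, and fewer cells of a type and less RNA per cell cannot be told apart.

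Retinol circulates in blood bound to retinol-binding protein and enters some cells through the membrane receptor Stra6. Inside the cell retinol is oxidised to retinaldehyde, and retinaldehyde dehydrogenases of the Aldh1a family then form retinoic acid. Retinoic acid binds nuclear receptors of the Rar family, which pair with Rxr receptors at response elements in DNA, while Cyp26 enzymes degrade it. In the embryo retinoic acid helps to pattern the face and the limbs, and in bone both a lack and an excess of vitamin A disturb bone formation and resorption.

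Values are the deposited MAS5 signal, a linear measure of the brightness of a probe set. MAS5 signal does not compare 1 gene with another, so levels are compared only between sites. The median signal of an array, from 30.6 to 33.6, was used to scale each array and to mark low signal. Replicate arrays of a site correlated with Pearson's r from 0.952 to 0.956 across the tested probe sets, and arrays of different sites from 0.797 to 0.862. Probe sets brighter than the array median in 2 or more of the 6 arrays were tested, and 9 of the 11 member probe sets, for 8 of the 9 genes, passed. Aldh1a1, Aldh1a2 and Rbp4 lay above the median on all 6 arrays. Crabp1 and Crabp2 passed only through their mandible arrays, so that a difference was built into their passing. A difference was called where the limma adjusted p was under 0.05 and the fold was 2 or more.

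Most of these genes were highest in the mandible. For Aldh1a2, Aldh1a3, Crabp1, Crabp2, Cyp26b1 and Rarb both mandible arrays lay above all 4 other arrays. This held for 8 of the 11 member probe sets, against 14.6% of all probe sets on the array other than controls and 18.5% of those tested. For Aldh1a1 and Rbp4 both ulna arrays lay above all others, which held for 17.5% of all probe sets and 25.1% of those tested. None of the 11 had both calvaria arrays on top, where 9.69% of all and 11.4% of the tested probe sets did. Between mandible and ulna 5 of the 8 genes tested were called higher in mandible and 1, Aldh1a1, was called lower. The background over the tested probe sets was 9.36% higher and 11.3% lower, or 20.7% in either direction. Between mandible and calvaria 4 of the 8 were called higher in mandible, with a background of 4.09%, and none was called lower (3.48%, or 7.57% in either direction). Between calvaria and ulna 4 of the 8 were called higher in calvaria, with a background of 6.9%, and none was called lower (4.95%, or 11.9% in either direction). These counts include Crabp1 and Crabp2, whose passing of the filter had a difference built in. Without a filter 5 of the 9 members were called higher in mandible than in ulna (5.49% of all 45037 probe sets) and 1 lower (6.43%). In mandible against calvaria 4 were called higher (2.35%), in calvaria against ulna 3 (3.82%), and in both 0 were called lower (1.87% and 2.73%). When every signal below the array median was raised to that median, 6 genes were called between mandible and ulna, 5 between mandible and calvaria and 0 between calvaria and ulna. Without the moderation of variances across probe sets, which leaves 3 residual degrees of freedom, Aldh1a3 was the 1 member called in the comparison of calvaria with ulna and in that of mandible with calvaria, and 4 members (Aldh1a3, Crabp1, Crabp2 and Cyp26b1) were called between mandible and ulna. The comparisons share arrays, so their counts do not stand apart from each other. Taken over every tested probe set, the median difference on the log2 scale was -0.13 between mandible and ulna, -0.09 between mandible and calvaria and -0.08 between calvaria and ulna, and the values below were not corrected for it.

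**Figure D1:**
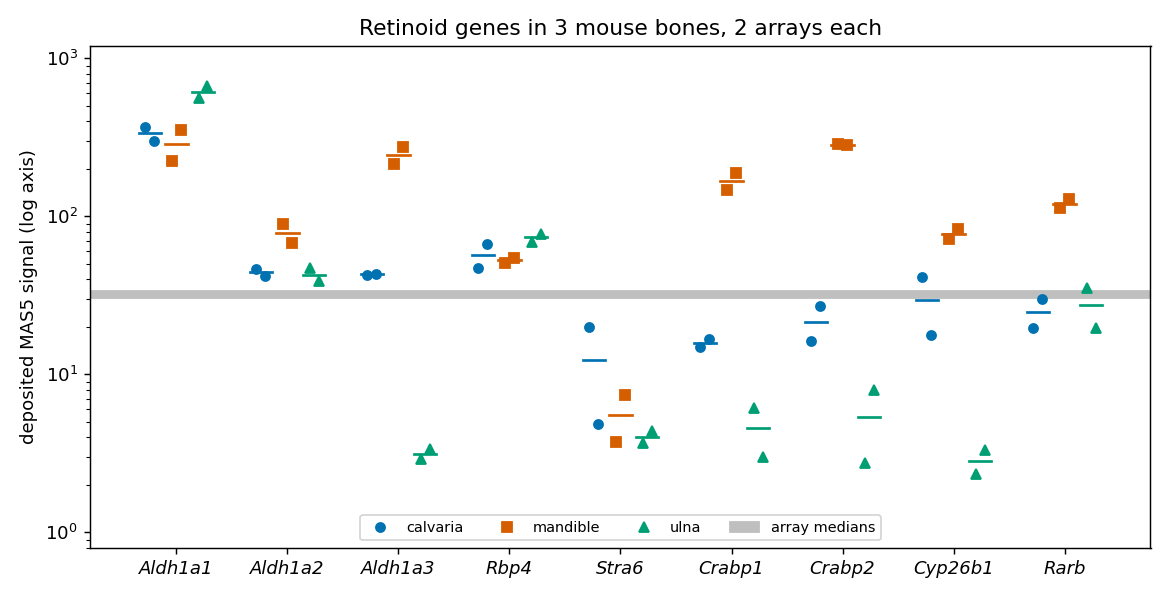
Deposited MAS5 signal (logarithmic axis) of the 9 retinoid genes, each by its probe set with the highest mean, in calvaria (circles), mandible (squares) and ulna (triangles). Points are the 2 arrays of a site, short lines their mean, and the grey band spans the medians of the 6 arrays, from 30.6 to 33.6. Crabp1, Crabp2 and Rarb lie above the band on both mandible arrays and, but for 1 ulna array of Rarb, below it elsewhere, while Aldh1a1 is highest in ulna.

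The 3 dehydrogenases of the Aldh1a family, which carry out the last step of retinoic acid synthesis, had 3 different patterns. Aldh1a3 was higher in mandible than at the other sites, Aldh1a1 was higher in ulna, and Aldh1a2 differed by less than 2-fold. The signal of Aldh1a3 at its brightest probe set, 1448789_at, was 215 and 276 in mandible, 42.4 and 43.4 in calvaria, and 2.91 and 3.37 in ulna. The sites did not overlap, and in ulna both arrays lay far below the array median. The log2 difference was 6.16 between mandible and ulna (SE 0.39, adjusted p = 4.76e-07) and 2.46 between mandible and calvaria (SE 0.39, adjusted p = 0.000964). For calvaria against ulna it was 3.70 (adjusted p = 3.66e-05). Because the ulna signals are so low, these differences from ulna rest on values near the floor of the array. With signal below the array median raised to it, mandible was at least 7.29-fold above ulna and the difference between calvaria and ulna was 0.40 on the log2 scale (adjusted p = 0.174), no longer called.

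The other probe sets of Aldh1a3 were dimmer. With 1417642_at the signal was 73.1 and 44.2 in mandible, 1.996 and 1.78 in calvaria and 0.876 and 4.88 in ulna. It passed the filter through its mandible arrays alone, and so gives no separate support to the first probe set. It had a log2 difference of 4.66 between mandible and ulna (SE 2.02, adjusted p = 0.0853) and of 4.87 between mandible and calvaria (SE 2.02, adjusted p = 0.115), and neither passed. Calvaria and ulna overlapped at this probe set (-0.21, 95% interval -4.67 to 4.26). The third, 1427395_a_at, stayed below the array median on all 6 arrays and was not tested. Its signal was 9.75 and 22.6 in mandible, 0.880 and 7.87 in calvaria and 3.47 and 4.48 in ulna.

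Aldh1a1, a cytosolic retinaldehyde dehydrogenase that is also known from blood stem cells, had the opposite order. At probe set 1416468_at its signal was 559.8 and 665 in ulna, 369 and 301 in calvaria, and 225 and 353 in mandible. Both ulna arrays lay above all others, while the calvaria and mandible arrays overlapped. The log2 difference between mandible and ulna was -1.23 (SE 0.19, adjusted p = 0.000399), which is 2.35-fold higher in ulna. It was -0.95 between calvaria and ulna (adjusted p = 0.00358), just under the 2-fold limit, and -0.28 between mandible and calvaria (adjusted p = 0.336, 95% interval -0.71 to 0.14). Some of these calls rested on 1 array. Without mandible replicate 1 the difference between mandible and ulna was -0.90 (adjusted p = 0.00246) and so under 2-fold. The difference between calvaria and ulna was called without calvaria replicate 1 (-1.10, adjusted p = 0.0103) and without ulna replicate 1 (-1.08, adjusted p = 0.00969).

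Aldh1a2, the dehydrogenase that forms most retinoic acid in the early embryo, had at 1422789_at a signal of 88.9 and 67.6 in mandible, 46.5 and 42.3 in calvaria and 46.9 and 38.8 in ulna. Calvaria and ulna overlapped, and both mandible arrays were higher. The log2 difference was 0.75 between mandible and ulna (SE 0.27, adjusted p = 0.0467), which did not reach 2-fold, and 0.77 between mandible and calvaria (adjusted p = 0.0702). The difference between calvaria and ulna was -0.02 (95% interval -0.62 to 0.58), and its sign changed with the values as deposited.

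Of the genes for transport, Rbp4 encodes the retinol-binding protein of blood, which is made mainly by the liver and also by fat. The signal of its probe set, 1426225_at, was 69.2 and 77.9 in ulna, 47.0 and 66.6 in calvaria and 51.0 and 54.3 in mandible. The ulna arrays were the highest, and those of calvaria and mandible overlapped. No difference passed, with log2 values of -0.60 between mandible and ulna (adjusted p = 0.0858, 95% interval -1.17 to -0.02), -0.47 between calvaria and ulna (adjusted p = 0.207) and -0.13 between mandible and calvaria (adjusted p = 0.774). Stra6 (1422723_at), the membrane receptor for retinol-binding protein, lay below the array median on all 6 arrays and was not tested. Its signal was 19.9 and 4.84 in calvaria, 3.72 and 7.36 in mandible and 3.70 and 4.37 in ulna, and the sites overlapped.

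The cellular binding proteins for retinoic acid stood out in the mandible. Crabp1 encodes a cytosolic binding protein, and Crabp2 one that hands retinoic acid to its nuclear receptor. For Crabp2 (1451191_at) the signal was 287 and 283 in mandible, 16.2 and 27.0 in calvaria and 2.74 and 7.97 in ulna. Crabp1 (1448326_a_at) had a signal of 146 and 188 in mandible, 14.9 and 16.8 in calvaria and 6.14 and 3.01 in ulna. For both genes the sites did not overlap, and all calvaria and ulna arrays lay below the array median.

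Crabp2 was higher in mandible than in ulna by a log2 difference of 5.81 (SE 0.54, adjusted p = 9.07e-06) and than in calvaria by 3.73 (SE 0.54, adjusted p = 0.000586). The differences of Crabp1 were 5.15 from ulna (SE 0.56, adjusted p = 3.03e-05) and 3.35 from calvaria (SE 0.56, adjusted p = 0.00152, and 0.0509 without mandible replicate 2). With low signal raised to the array median, mandible was at least 8.53-fold above each of the other sites for Crabp2 and at least 4.97-fold for Crabp1, and all 4 differences were called. The log2 differences between calvaria and ulna were 2.09 for Crabp2 (SE 0.54, adjusted p = 0.014) and 1.80 for Crabp1 (SE 0.56, adjusted p = 0.034). These lie between signals that are all below the array median. Crabp2 lost this call without calvaria replicate 2 (adjusted p = 0.101), mandible replicate 1 (0.0520) or mandible replicate 2 (0.0517). Crabp1 lost it without either calvaria array (adjusted p = 0.0754 without replicate 1 and 0.113 without replicate 2), mandible replicate 1 (0.0997) or 2 (0.111), or ulna replicate 2 (0.0747).

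Cyp26b1 encodes an enzyme that degrades retinoic acid, and its loss in mice disturbs limb and skull development. Its signal at 1460011_at was 71.7 and 83.0 in mandible, 41.5 and 17.7 in calvaria and 2.34 and 3.30 in ulna. The sites did not overlap, but the calvaria arrays lay on both sides of the array median. Cyp26b1 was higher in mandible than in ulna by a log2 difference of 4.68 (SE 0.69, adjusted p = 0.000285), or at least 2.31-fold with low signal raised to the median. Calvaria and ulna differed by 3.21 (SE 0.69, adjusted p = 0.00528), and without calvaria replicate 1 it missed the threshold (2.60, adjusted p = 0.0778). With low signal raised to the median this difference fell to 0.18 (adjusted p = 0.508). Mandible and calvaria differed by 1.47 (adjusted p = 0.165, 95% interval -0.07 to 3.003), which did not pass but was called with low signal raised to the median (1.03, adjusted p = 0.00707).

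Rarb, a nuclear receptor of retinoic acid whose own transcription retinoic acid raises in many cells, was read by probe set 1454906_at. The signal was 113 and 128 in mandible, 19.8 and 30.2 in calvaria and 35.2 and 19.7 in ulna. Calvaria and ulna overlapped around and below the array median, and both mandible arrays lay well above it. The log2 difference was 2.07 between mandible and ulna (SE 0.37, adjusted p = 0.00104) and 2.26 between mandible and calvaria (SE 0.37, adjusted p = 0.00133). Both were called again with low signal raised to the median, where mandible was at least 3.38-fold above ulna and 3.61-fold above calvaria. For calvaria against ulna the difference was -0.18 (adjusted p = 0.75, 95% interval -1.01 to 0.64), and its sign changed without calvaria replicate 1 (0.12) and without ulna replicate 1 (0.23).

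**Figure D2:**
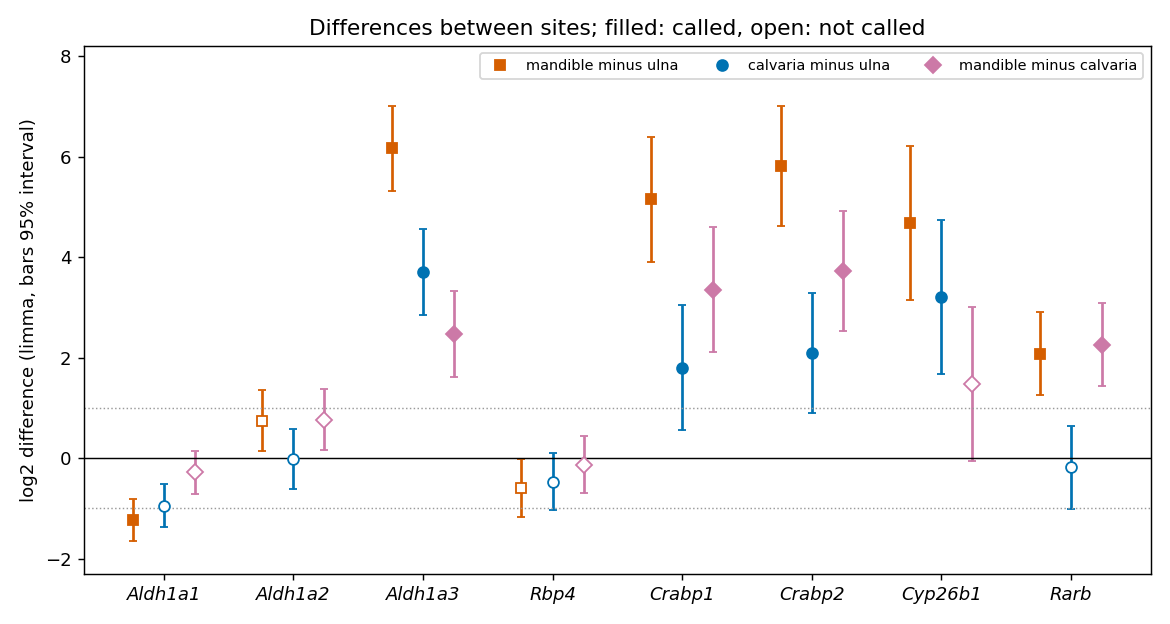
Log2 differences of the 8 tested genes between mandible and ulna (squares), calvaria and ulna (circles) and mandible and calvaria (diamonds), from limma with bars for the 95% interval, filled where called and open where not. Dotted lines mark a 2-fold change. Aldh1a3 has the highest difference between mandible and ulna, 6.16, and Aldh1a1 is the 1 gene called lower in mandible, at -1.23.

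Of 26 further genes of the retinoid pathway, 23 had a probe set named here and 16 were tested. Between mandible and ulna 2 of the 16 were higher in mandible and 2 were lower, close to the background of 9.36% and 11.3%, with a median log2 difference of 0.29 against -0.13 for all tested probe sets. Between mandible and calvaria 3 were higher and 1 was lower (background 4.09% and 3.48%, median 0.10 against -0.09), and between calvaria and ulna 1 was higher and 1 was lower (background 6.9% and 4.95%, median 0.12 against -0.08). Cyp26a1, the other main enzyme of retinoic acid breakdown, was highest in mandible. Its signal was 133 and 105 in mandible, 8.03 and 11.5 in calvaria and 3.91 and 0.863 in ulna. The mandible arrays were the only ones above the array median, so the gene passed the filter through them alone. The log2 difference was 5.89 between mandible and ulna (SE 1.01, adjusted p = 0.000754) and 3.58 between mandible and calvaria (SE 1.01, adjusted p = 0.0271). With low signal raised to the median, mandible was at least 3.55-fold above each of the others. The call between mandible and calvaria was lost without calvaria replicate 1 (adjusted p = 0.0947) or 2 (0.0711) and without mandible replicate 1 (0.231) or 2 (0.166). The difference of 2.31 between calvaria and ulna (adjusted p = 0.111) was called without ulna replicate 1 (3.39, adjusted p = 0.0199).

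Rdh10, the retinol dehydrogenase that makes retinaldehyde for the Aldh1a enzymes, was higher in mandible as well. The signal was 317 and 299.8 in mandible, 115 and 108 in calvaria and 124 and 118 in ulna. The log2 difference was 1.23 between mandible and ulna (SE 0.14, adjusted p = 3.09e-05) and 1.43 between mandible and calvaria (SE 0.14, adjusted p = 3.04e-05), and the second probe set of the gene was called in both comparisons too (1.20 and 1.52). Calvaria and ulna differed by -0.20 (adjusted p = 0.306). Fabp5, a fatty acid-binding protein that also binds retinoic acid, had a signal of 2324 and 2378 in mandible, 733 and 676 in calvaria and 1399 and 1322 in ulna. It was higher in mandible than in calvaria by 1.70 (adjusted p = 5.87e-08) and lower in calvaria than in ulna by a log2 difference of -1.03 (adjusted p = 1.76e-06). The latter lies at the 2-fold limit. It was under it with the values as deposited (-0.95), without calvaria replicate 2 (-0.97), without ulna replicate 1 (-0.99) and at the second probe set (-0.51). Between mandible and ulna Fabp5 differed by 0.67, under 2-fold, while its second probe set was called at 1.41.

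Ttr, transthyretin, which carries retinol-binding protein in blood and is abundant in the choroid plexus, had an order of its own. The signal was 8087 and 8619 in calvaria, 13.7 and 8.55 in mandible and 92.3 and 77.6 in ulna. Calvaria was higher than ulna by a log2 difference of 6.55 (SE 0.20, adjusted p = 1.56e-09) and mandible was lower than calvaria by -9.63 (adjusted p = 3.04e-10), with the same calls at all 4 probe sets of the gene. Between mandible and ulna the probe sets did not agree. Log2 differences of -3.08 and -4.84 were called at 2 of them, and -0.92 and 1.10 were not called at the others. The probe sets with -0.92 and 1.10 passed the filter through their calvaria arrays alone, so that a difference was built into their passing. Their calls between calvaria and the other sites thus give no separate support. Dgat1, an enzyme of fat synthesis that can also esterify retinol, had a signal of 166 and 138 in mandible, 256 and 219.9 in calvaria and 328 and 391 in ulna, and was lower in mandible than in ulna by a log2 difference of -1.36 (adjusted p = 2.57e-05). Its difference between calvaria and ulna was -0.67 (adjusted p = 0.00542), under 2-fold, and its second probe set was called at -1.05.

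Unlike Rarb, the other retinoid receptors were not called between any sites at their brightest probe sets. Rarg, which is known as the main Rar of cartilage and skin, had a signal of 173 and 149.6 in mandible, 142 and 169.9 in calvaria and 107 and 70.9 in ulna. Both skull sites lay above ulna, by log2 differences of 0.77 for mandible (adjusted p = 0.0109) and 0.76 for calvaria (adjusted p = 0.0174), under 2-fold. Without ulna replicate 1 both were called (1.06 and 1.04), and the second probe set of Rarg was called between mandible and ulna (1.44, adjusted p = 0.0283). Rxra had a signal of 100.5 and 112 in mandible, 93.0 and 88.6 in calvaria and 91.3 and 68.5 in ulna, with log2 differences of 0.31 (adjusted p = 0.241), 0.19 (0.562) and 0.12 (0.692) for mandible from ulna, mandible from calvaria and calvaria from ulna. The sign of the last changed without ulna replicate 2 (-0.08) and at the second tested probe set (-0.50). For Rxrb the arrays of all 3 sites overlapped, between 162 and 239.7, and no log2 difference was larger than 0.02. Rara, with signal from 1.10 to 18.6, and Rxrg, from 20.7 to 44.0, were not tested. The difference between Rarb and these receptors was not tested.

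**Figure D3:**
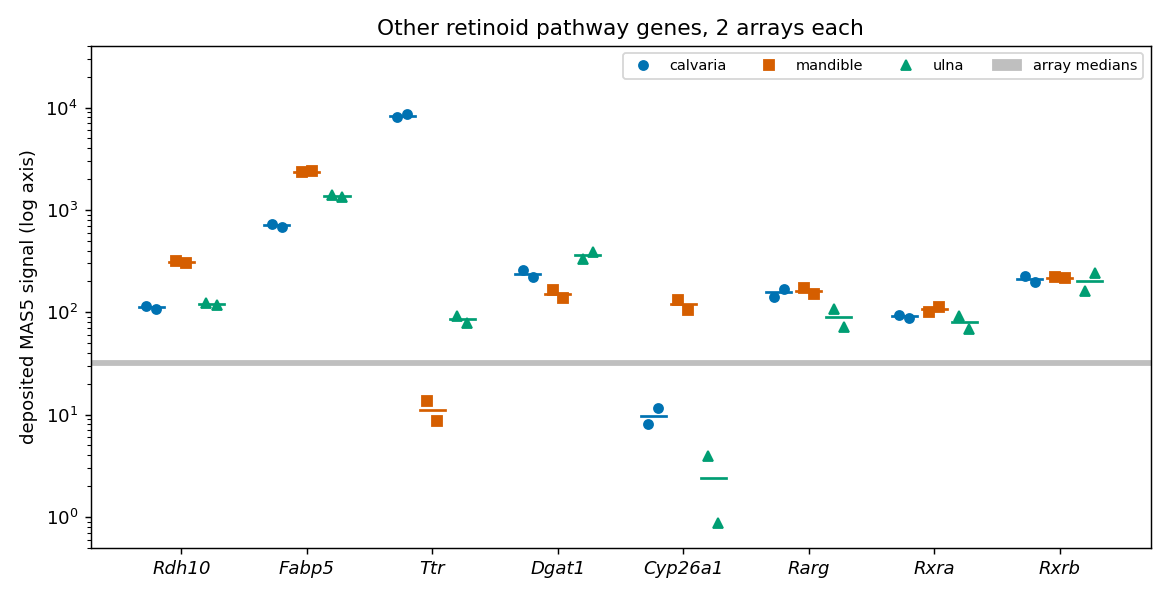
Deposited MAS5 signal (logarithmic axis) of 8 other genes of the retinoid pathway on the 2 arrays of calvaria (circles), mandible (squares) and ulna (triangles), with short lines for means and a grey band for the array medians. Rdh10, Fabp5 and Cyp26a1 are highest in mandible, Ttr in calvaria and Dgat1 in ulna, while the arrays of the 3 sites overlap for Rxrb.

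The list of genes given here as known to respond to retinoic acid leaves out all members and the further pathway genes above. Rarb, Crabp2, Cyp26b1 and Cyp26a1 are thus not in it. The genes in this list did not share one pattern. Of 11 such genes, 10 had a probe set named here and 7 were tested. Rarres2, a secreted chemoattractant, was higher in mandible (304 and 407) than in ulna (134 and 166) by a log2 difference of 1.12 (SE 0.16, adjusted p = 0.000262), and was called there at a second probe set (1.72). It was under 2-fold without mandible replicate 2 (0.90) or ulna replicate 1 (0.96). The transcription factor genes Meis2 and Nr2f1 were higher in calvaria instead. Both passed the filter through their calvaria arrays alone, so that a difference was built into their passing. Meis2 had a signal of 87.3 and 93.2 in calvaria, 10.4 and 7.62 in mandible and 9.61 and 12.7 in ulna. Its log2 difference was -3.38 between mandible and calvaria (adjusted p = 0.00147), while its other tested probe sets did not pass there (-4.03, adjusted p = 0.0678, and -1.54, adjusted p = 0.154). For Nr2f1 the signal was 114 and 101 in calvaria, 26.6 and 14.4 in mandible and 14.9 and 12.4 in ulna, with a difference of -2.49 between mandible and calvaria (adjusted p = 0.00197). Both were called between calvaria and ulna as well, at 2.95 (adjusted p = 0.00256, and 0.0556 without calvaria replicate 2) and 2.91 (adjusted p = 0.000522). In the 3 comparisons 1 of the 7 was called higher in mandible than in ulna (background 9.36%), 2 lower in mandible than in calvaria (3.48%) and 2 higher in calvaria than in ulna (6.9%), with medians of -0.09, 0.04 and 0.47. Of 5 tested cofactors and partners of the receptors, limma called 0 in each comparison. At an unadjusted p under 0.05, 2 of the 5 were lower in mandible than in ulna (31.3% of all tested probe sets), 1 was lower in mandible than in calvaria (21.1%), and 0 differed between calvaria and ulna (40.3% in either direction).

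The start regions of Rarb and of the Cyp26 genes are shown because these genes were higher in mandible and the first is a textbook target of its own receptor. RefSeq windows from 250 bases before to 50 after a start of transcription (build GRCm38.p6) were at hand for 7 of the 9 members, in 12 windows, and Aldh1a3 and Crabp2 were not among them. They were searched on both strands for a direct repeat of the receptor half-sites AGGTCA or AGTTCA or GGGTCA or GGTTCA, with 5, 2 or 1 bases between one and the next. Rarb was the 1 member with a repeat. It has 5 bases between its half-sites and runs from base -53 to base -37 before the start, on the strand of the gene. Cyp26a1 has one with 5 bases between as well, from -32 to -16 on the opposite strand, so that its capitals are the reverse complement of the repeat, and Cyp26b1 has none in its window. A repeat with 5 bases between occurred in 32 of all 32851 windows (0.0974%), one with 2 in 0.268% and one with 1 in 0.222%. A match is a description of the letters and not a measured binding site. Each sequence runs 5' to 3' on the strand of its gene, and capitals mark the repeat.
Rarb, chr14:16575427-16575726, minus strand: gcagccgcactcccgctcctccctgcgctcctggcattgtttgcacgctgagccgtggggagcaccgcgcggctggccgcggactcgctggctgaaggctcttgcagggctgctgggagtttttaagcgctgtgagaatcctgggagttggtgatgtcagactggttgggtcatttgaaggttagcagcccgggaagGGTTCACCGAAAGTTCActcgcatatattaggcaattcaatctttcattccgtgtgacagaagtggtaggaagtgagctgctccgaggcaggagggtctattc
Cyp26a1, chr19:37697558-37697857, plus strand: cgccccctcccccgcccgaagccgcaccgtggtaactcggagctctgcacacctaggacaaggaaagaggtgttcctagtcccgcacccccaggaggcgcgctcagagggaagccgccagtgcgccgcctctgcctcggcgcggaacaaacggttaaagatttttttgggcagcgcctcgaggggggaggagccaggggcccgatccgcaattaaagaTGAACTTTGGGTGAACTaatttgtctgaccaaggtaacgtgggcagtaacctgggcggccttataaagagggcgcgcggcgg
Cyp26b1, chr6:84593761-84594060, minus strand: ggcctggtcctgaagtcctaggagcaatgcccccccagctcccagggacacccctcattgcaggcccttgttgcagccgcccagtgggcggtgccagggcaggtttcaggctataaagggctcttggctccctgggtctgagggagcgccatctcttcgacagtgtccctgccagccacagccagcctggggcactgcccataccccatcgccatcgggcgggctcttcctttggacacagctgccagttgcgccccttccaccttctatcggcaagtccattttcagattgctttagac
Windows were looked up by gene for the members and Cyp26a1 alone. Among these, genes that were high in mandible had windows with and without the repeat. Rarb (mandible mean 121, ulna mean 27.5) and Cyp26a1 (119 and 2.39), which is not a member, hold the repeat. Cyp26b1 (77.4 and 2.82), Crabp1 (167 and 4.57) and Aldh1a2 (78.3 and 42.8, not called) do not.

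Markers of teeth and of surface epithelium were high where most retinoid genes were high. All 5 tooth markers (Amelx, Ambn, Enam, Dspp and Klk4) lay above the array median on both mandible arrays, with a summed signal of 39959 to 41469, and 0 of 5 did so in calvaria (34.2 to 56.4) or ulna (42.7 to 56.5). Of the 6 epithelial markers, all lay above the median on both mandible arrays (summed signal 3588 to 3707), against 2 in calvaria (105 to 131) and 1 in ulna (112 to 164). Osteoblast markers were high at both skull sites, with sums of 16233 to 16281 in mandible, 15333 to 16782 in calvaria and 2423 to 2578 in ulna. Col1a1 made up most of these sums, with a mean signal of 11892 in mandible, 12672 in calvaria and 1457 in ulna. Of the 5 tested, Alpl (mean 934 in mandible and 319 in calvaria) was called higher in mandible than in calvaria (background 4.09%). Ifitm5 (163 and 325) was called lower there (3.48%). Endothelial markers summed to 703 to 745 in mandible, 541 to 613 in calvaria and 392 to 426 in ulna. Of these 5, 1 was called higher in mandible than in ulna (background 9.36%), and 0 were called between mandible and calvaria. The part of teeth, epithelium, osteoblasts and endothelium in the mandible values of Aldh1a3, Crabp1, Crabp2, Cyp26b1, Cyp26a1 and Rarb was not tested.

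Where Aldh1a1 was highest, other markers were high too. Adipocyte markers summed to 5716 to 5964 in ulna, 2325 to 2336 in calvaria and 1808 to 1828 in mandible, with 3 of 4 above the median on both ulna arrays and 2 of 4 at the other sites. Erythroid markers summed to 3706 to 3726 in ulna, 2563 to 2736 in calvaria and 1402 to 1405 in mandible, all 3 above the median throughout. Neutrophil markers summed to 61315 to 61765 in ulna, 53526 to 57443 in calvaria and 47925 to 48061 in mandible, all 5 above the median throughout. Between mandible and ulna 1 of these 5 was called, lower in mandible (background 11.3%). Muscle markers had another order than Aldh1a1, and summed to 32211 to 32271 in ulna, 28318 to 28939 in mandible and 4197 to 4316 in calvaria. Between mandible and ulna 1 of the 6 muscle markers, Myh2, was called, lower in mandible (background 11.3%). Acta1, Ckm and Mylpf had the higher mean in mandible, and Myh2, Myh4 and Tnnt3 in ulna. The part of these cells in the values of Aldh1a1 was not tested. Of 4 liver markers, 0 lay above the median on both arrays of any site (sums from 26.2 to 62.3). Meninges markers had their highest sum in calvaria, where Ttr, Meis2 and Nr2f1 were highest too. The sum was 2228 to 2729 in calvaria, 267 to 299 in mandible and 371 to 409 in ulna, with 6, 3 and 4 of the 8 markers above the median on both arrays of the site. Ptgds made up most of it, with a signal of 1916 and 1406 in calvaria. Of the 8, 6 were tested. Among those, 3 were called higher in calvaria than in ulna (background 6.9%) and 5 lower in mandible than in calvaria (3.48%). Foxd1 passed the filter through its calvaria arrays alone, so that a difference was built into its passing. Slc6a20a (mean 150.3 in ulna and 96.1 in calvaria) and Slc6a13 (42.0 and 38.5) were not called between calvaria and ulna and had the higher mean in ulna. Markers of neurons and glia summed to 1377 to 1414 in calvaria, 1014 to 1062 in mandible and 324 to 359 in ulna, with 4, 2 and 2 of 6 above the median on both arrays. Mbp made up most of the mandible sum, with a mean signal of 935 in mandible, 694 in calvaria and 235 in ulna. Tubb3 (54.6 in mandible and 33.0 in calvaria) and Gfap (16.4 and 13.3, not tested) had the higher mean in mandible too. Neither Mbp nor Tubb3 was called between mandible and calvaria. All 5 tested markers of neurons and glia were called higher in calvaria than in ulna (background 6.9%). Of these, 3 were called lower in mandible than in calvaria (3.48%). Snap25 and Nefl passed the filter through their calvaria arrays alone, so that a difference was built into their passing. Osteoclast markers also had their highest sum in calvaria, 9085 to 9604, against 4971 to 5213 in mandible and 1446 to 1702 in ulna. All 3 tested were called higher in calvaria than in ulna (background 6.9%), and 1 was called lower in mandible than in calvaria (3.48%). The part of meninges, neurons and glia, and osteoclasts in the calvaria values of Ttr, Meis2 and Nr2f1 was not tested.

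**Figure D4:**
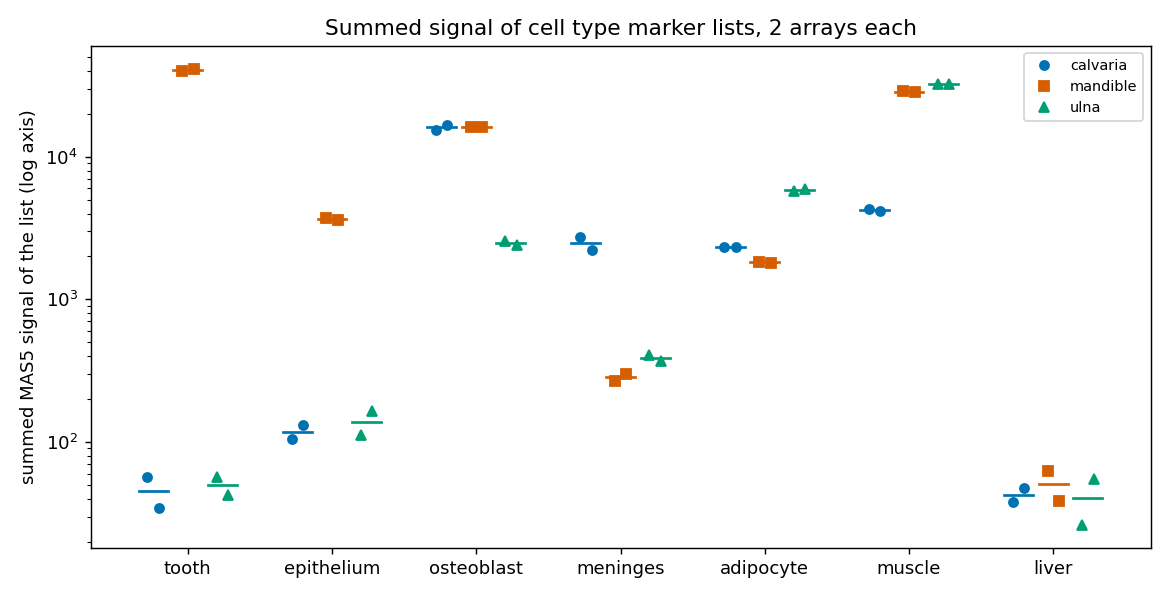
Summed MAS5 signal (logarithmic axis) of 7 lists of cell type markers on the 2 arrays of calvaria (circles), mandible (squares) and ulna (triangles), with short lines for means. Tooth and epithelial sums are highest in mandible, adipocyte and muscle sums in ulna, the sum for meninges in calvaria, and liver markers sum to 62.3 or less on every array.

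For each called member, the 3 genes nearest to it across the 6 arrays are given as a description. Likeness was measured as the root mean square distance between log2 values, each centred on its own mean. Some gene is always nearest, and no limit was set on the distance. Nearest to Crabp1 were Mab21l3 (distance 0.31), the homeobox gene Msx2 (0.31) and Gng4 (0.32), a G protein subunit. Crabp2 was nearest to the paired box gene Pax9 (0.36), the creatine kinase gene Ckmt1 (0.49) and Steap1 (0.53). Pax9, a factor of tooth and palate development, had a mean signal of 126 in mandible, 9.66 in calvaria and 2.24 in ulna. For Aldh1a3 the nearest were the potassium channel gene Kcnk1 (0.33), Steap1 (0.39) and Flrt3 (0.41). Cyp26b1 was nearest to genes of secreted or surface proteins, Gpc3 (0.31), Igfbp3 (0.34) and Tnn (0.37). Tnn, or tenascin-W, had a mean signal of 2125 in mandible, 628 in calvaria and 70.4 in ulna. Rarb was nearest to Mapt (0.14), which encodes the microtubule protein tau, Mab21l2 (0.16) and Ly6g6c (0.19). The genes nearest to Aldh1a1 were Kif2c (0.09), Melk (0.10) and Gmfb (0.11), of which Kif2c and Melk act in cell division. Kif2c lay at 46.7 in ulna, 27.0 in calvaria and 22.4 in mandible.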

How the data were processed

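Arrays were 6 Affymetrix mouse GeneChips, 2 each for calvaria, mandible and ulna, labelled with the one-cycle protocol. The deposited values are MAS5 signal intensities that the authors had scaled so that each array has a 2% trimmed mean of 100; the MAS5 version is not given in the sources used here. Precision is limited by the number of arrays. Probe sets were named from the platform annotation, with symbols looked up by gene ID (RefSeq genes of GRCm38.p6): 34958 had 1 symbol, 932 several and 9211 none, and 64 controls were left out. Signals were divided by the array median and log2 was taken with no offset. The 25233 probe sets (55.9%) above the median on at least 2 arrays were fitted with limma 3.58.1 (R 4.3.3), with 1 mean per site, a trend in the variance and Benjamini-Hochberg adjustment over all tested probe sets. Each gene was read from its brightest tested probe set. The fit was tested on simulated data. Groups came from the sample titles. Named are all members, the receptors, every pathway or responsive gene called, and the 3 genes nearest to each called member. Members, lists and settings were chosen with earlier results of these data known. The alternatives tried were other scalings, filters, variance models and call rules, the replicate block, each array left out, and low signal raised to the median. The latter was added after the data were seen. Figures used matplotlib 3.10.9 in Python 3.11.15.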

Additional observations from a re-analysis of the deposited data

How the results depend on the processing

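Alternatives were run for the counts of called members and lists and for 57 differences of named genes, which gave 1062 recomputed differences. Of these 975 kept their sign and their side of the limits, 45 were no longer called, 20 became called and 22 changed sign. No difference that was called changed sign. Signal near or below the array median limits how exactly a fold can be given.

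Of the retinoid members, 4 were called between calvaria and ulna. Without moderation of the variances this was 1, with only the 4 arrays compared 2, and with low signal raised to the array median 0, while it was 2 to 5 when arrays were left out in turn. It was 2 without calvaria replicate 2, mandible replicate 1 or mandible replicate 2. The 4 called between mandible and calvaria became 1 without moderation. The 6 called between mandible and ulna were 4 to 7 under every alternative. Over all tested probe sets, the 2991 called between calvaria and ulna became 1566 without moderation, 1783 with the stricter filter and 7475 by the adjusted p alone. The 5224 between mandible and ulna became 3455, 3107 and 10961, and the 1909 between mandible and calvaria 723, 1189 and 5532.

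Of the pathway genes, 2 were called between calvaria and ulna. This was 1 with the values as deposited, with scaling to the 75th percentile and with quantile normalization, 5 by the adjusted p alone, and 1 to 3 with arrays left out, 1 without calvaria replicate 2 and 3 without ulna replicate 1. By the adjusted p alone 7 in place of 4 were called between mandible and ulna, and 7 in place of 4 between mandible and calvaria. Of the responsive genes, 2 called between calvaria and ulna became 0 with the stricter filter, 4 by the adjusted p alone and 1 to 2 with arrays left out. The 1 called between mandible and ulna became 2 without a filter, 0 without moderation, 2 by the adjusted p alone, 3 with the probe set of largest change and 0 to 1 with arrays left out. The 2 called between mandible and calvaria became 0 with the stricter filter and 1 without moderation. The 0 cofactors called between mandible and ulna became 2 by the adjusted p alone and 0 to 1 with arrays left out. The causes were not tested, except that the stricter filter tests fewer genes.

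Uncalled differences that changed sign are given here. Between calvaria and ulna Aldh1a2 was 0.057 with the values as deposited, 0.037 with scaling to the 75th percentile and from -0.15 to 0.11 with arrays left out in turn, and Rarb ranged from -0.59 to 0.23 with arrays left out. Between mandible and calvaria the range was -0.62 to 0.050 for Aldh1a1, -0.38 to 0.12 for Rbp4 and -0.12 to 0.14 for Rarg. Rxrb there was 0.038 as deposited, 0.045 with scaling to the 75th percentile, 0.071 with quantile normalization and from -0.11 to 0.11 with arrays left out. Between calvaria and ulna Rxrb ranged from -0.27 to 0.31 and Rxra from -0.075 to 0.32, and Rxra was -0.50 with the probe set of largest change. Between mandible and ulna the range was -0.27 to 0.31 for Rxrb and -0.021 to 0.85 for Nr2f1, and Meis2 was 1.69 with the probe set of largest change.

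Deviations of same-numbered arrays from their site means correlated between -0.012 and 0.0058, so no pairing by the replicate numbers of the labels was seen. With 2 arrays a site this cannot tell whether same-numbered arrays came from the same mice. With the replicate number as a block, 4, 6 and 4 members were called between calvaria and ulna, mandible and ulna, and mandible and calvaria.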
